A study of Mus musculus with 18 samples.

Results

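Endothelial cells carry much of the machinery that starts, restrains and dissolves blood clots, and 9 genes of that machinery were followed in the endothelial cells of lymphatic vessels (LEC) and of blood vessels (BEC) in mouse embryos: Vwf, F8, F3, Thbd, Procr, Tfpi, Plat, Plau and Anxa2. They were taken by name, each as the array row whose only annotated gene symbol was that gene. Each of the 9 had exactly 1 such row, among 19938 genes measured. The 18 arrays (Affymetrix Mouse Gene 1.0 ST, with probes along a gene's exons) fall into 6 groups of 3 biological replicates, LEC and BEC at embryonic days 14.5, 16.5 and 18.5 (E14.5, E16.5, E18.5). The design text matches LEC and BEC samples of 3 litters at each age. The labels give the tissue as embryonic and name neither a strain, a genotype nor a treatment, and they describe the isolation of the cells only through a citation that was not used here. The series' title places the arrays in a study of how an enhancer bound by the transcription factor GATA2 controls LEC identity.

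As background, von Willebrand factor (VWF) is stored in endothelial Weibel-Palade bodies, captures platelets at sites of injury and carries factor VIII in plasma. Tissue factor starts the coagulation cascade, tissue factor pathway inhibitor blocks it at that step, and thrombomodulin with the endothelial protein C receptor turns thrombin towards activating the anticoagulant protein C. Plasminogen is converted to the clot-dissolving enzyme plasmin by tissue-type and urokinase-type plasminogen activators, and annexin A2 assembles plasminogen and its activator on the cell surface. Lymph holds fewer platelets than blood, and factor VIII is known to be made by endothelium, lymphatic endothelium included.

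Promoter sequences from RefSeq (GRCm38.p6, 250 bases before to 50 after an annotated start) were at hand for 5 of the 9 genes: F8, F3, Procr, Tfpi and Anxa2. Vwf, Thbd, Plat and Plau had no entry in that table. Of the 6 windows held (2 for Tfpi), 4 are shown 5′ to 3′ on the gene's strand. Procr and Anxa2 are shown because their centred levels were the most alike of any pair of the 9 genes, with a root mean square difference of 0.17 (log2) over the 18 arrays. Tfpi and F8 are shown because their change with age differed between LEC and BEC in the tests below. Capitals mark matches on either strand to GATAA (other strand TTATC; a core of GATA sites), TGANTCA (AP-1 type) and CCACCC (other strand GGGTGG; KLF type), motifs picked after these sequences had been seen.
Procr, chr2:155750967-155751266, plus strand: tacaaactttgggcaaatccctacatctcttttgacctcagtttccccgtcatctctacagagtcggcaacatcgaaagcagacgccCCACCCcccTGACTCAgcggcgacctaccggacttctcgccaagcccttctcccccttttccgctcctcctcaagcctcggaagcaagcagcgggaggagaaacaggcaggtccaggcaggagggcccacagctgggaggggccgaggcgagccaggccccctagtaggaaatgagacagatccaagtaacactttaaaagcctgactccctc
Anxa2, chr9:69453433-69453732, plus strand: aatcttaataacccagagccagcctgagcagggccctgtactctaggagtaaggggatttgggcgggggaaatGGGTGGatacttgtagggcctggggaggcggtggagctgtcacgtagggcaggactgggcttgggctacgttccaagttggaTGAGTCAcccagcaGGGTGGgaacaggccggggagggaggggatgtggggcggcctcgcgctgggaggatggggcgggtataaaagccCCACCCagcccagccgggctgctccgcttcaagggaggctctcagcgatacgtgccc
Tfpi, chr2:84476710-84477009, minus strand: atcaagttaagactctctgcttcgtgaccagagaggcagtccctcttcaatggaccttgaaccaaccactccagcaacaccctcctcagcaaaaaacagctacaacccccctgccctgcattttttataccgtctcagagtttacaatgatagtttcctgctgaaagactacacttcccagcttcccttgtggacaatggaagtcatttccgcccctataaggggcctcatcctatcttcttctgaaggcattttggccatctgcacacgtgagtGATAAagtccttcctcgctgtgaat
F8, chrX:75379992-75380291, minus strand: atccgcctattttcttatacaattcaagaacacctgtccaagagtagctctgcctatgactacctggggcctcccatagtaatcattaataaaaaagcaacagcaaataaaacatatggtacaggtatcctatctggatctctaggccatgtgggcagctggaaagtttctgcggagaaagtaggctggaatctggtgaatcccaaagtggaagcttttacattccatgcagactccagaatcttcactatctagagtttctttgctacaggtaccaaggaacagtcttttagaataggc

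The Procr window held a TGANTCA match whose first base lies at -154 from the start and a CCACCC match at -163. The Anxa2 window held a TGANTCA match at -95, and 3 matches to CCACCC on either strand, at -177, -81 and -7. The Tfpi window held GATAA at 25 bases past the start, and a window at a second annotated Tfpi start (chr2:84474125-84474424, minus strand) held it at -53. The F3 window (chr3:121723287-121723586, plus strand) held 2 TGANTCA matches, at -146 and -135, and 2 matches to CCACCC. None of the 3 motifs was in the F8 window. Among 32851 RefSeq promoter windows of the same 300 bases, 25.4% held GATAA, 7.8% TGANTCA and 31.5% CCACCC. Matches describe letters, not bound sites.

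Levels are log2 RMA values, a scale on which 1 unit is 2-fold. Levels of different genes depend on their probes and were not compared. Values below 4.58, the 95th percentile of the means of 1194 olfactory and vomeronasal receptor genes, were read as the dim range, in which the size of a difference is uncertain. Array medians were 5.434 to 5.582, and the interquartile range was 3.182 to 3.362 at E18.5 against 3.403 to 3.641 on the earlier arrays. All 5 measured lymphatic markers were higher in LEC and all 6 blood endothelial markers were higher in BEC over the ages, as the labels have it, and 5 of 6 general endothelial markers were lower in LEC. The general markers averaged 10.04, 10.41 and 10.75 in LEC at the 3 ages and 11.27, 11.50 and 11.59 in BEC, and from E14.5 to E18.5 limma called 5 of the 6 higher in LEC (median change 0.68) and 3 in BEC (median 0.29). The lymphatic markers averaged 8.10, 6.85 and 6.49 in BEC, where all 5 fell over that period (median -1.75), and 10.77, 11.02 and 11.14 in LEC. The blood endothelial markers averaged 6.19, 6.34 and 6.74 in LEC at the 3 ages and 9.53, 9.83 and 9.85 in BEC. The part of blood endothelial cells in the LEC values of genes higher in BEC was not tested. Markers of other cells were present and differed between the groups. The 8 macrophage markers averaged 6.54 to 6.70, 7.41 to 8.45 and 8.19 to 8.75 in LEC at the 3 ages, against 5.08 to 5.53 in BEC, and all 8 were higher in LEC over the ages. The 6 mast cell markers averaged 9.17 to 10.66 in LEC and 6.04 to 8.26 in BEC, and all 6 were higher in LEC. The 6 mural cell markers averaged 5.80 to 5.99, 6.93 to 7.12 and 8.22 to 8.42 in BEC at the 3 ages and 5.54 to 6.17 in LEC. All 6 were higher in BEC over the ages and at E18.5, whereas at E14.5 limma called 4 higher and 1 lower in BEC, and at E16.5 it called 5 higher. Keratinocyte and epithelial markers averaged 6.89 to 7.43 in LEC and 5.91 to 6.27 in BEC at E18.5, against 5.05 to 6.01 before. The 5 measured platelet and megakaryocyte markers averaged 5.23 to 6.39. No array was at 0 in any list, since RMA values have no true 0, and the hepatocyte markers Alb, Afp and Ttr lay in the dim range on every array. The part of these cells in the results that follow was not tested, and in such bulk RNA a lower share of cells that make a transcript and less of it per cell cannot be told apart.

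**Figure D1:**
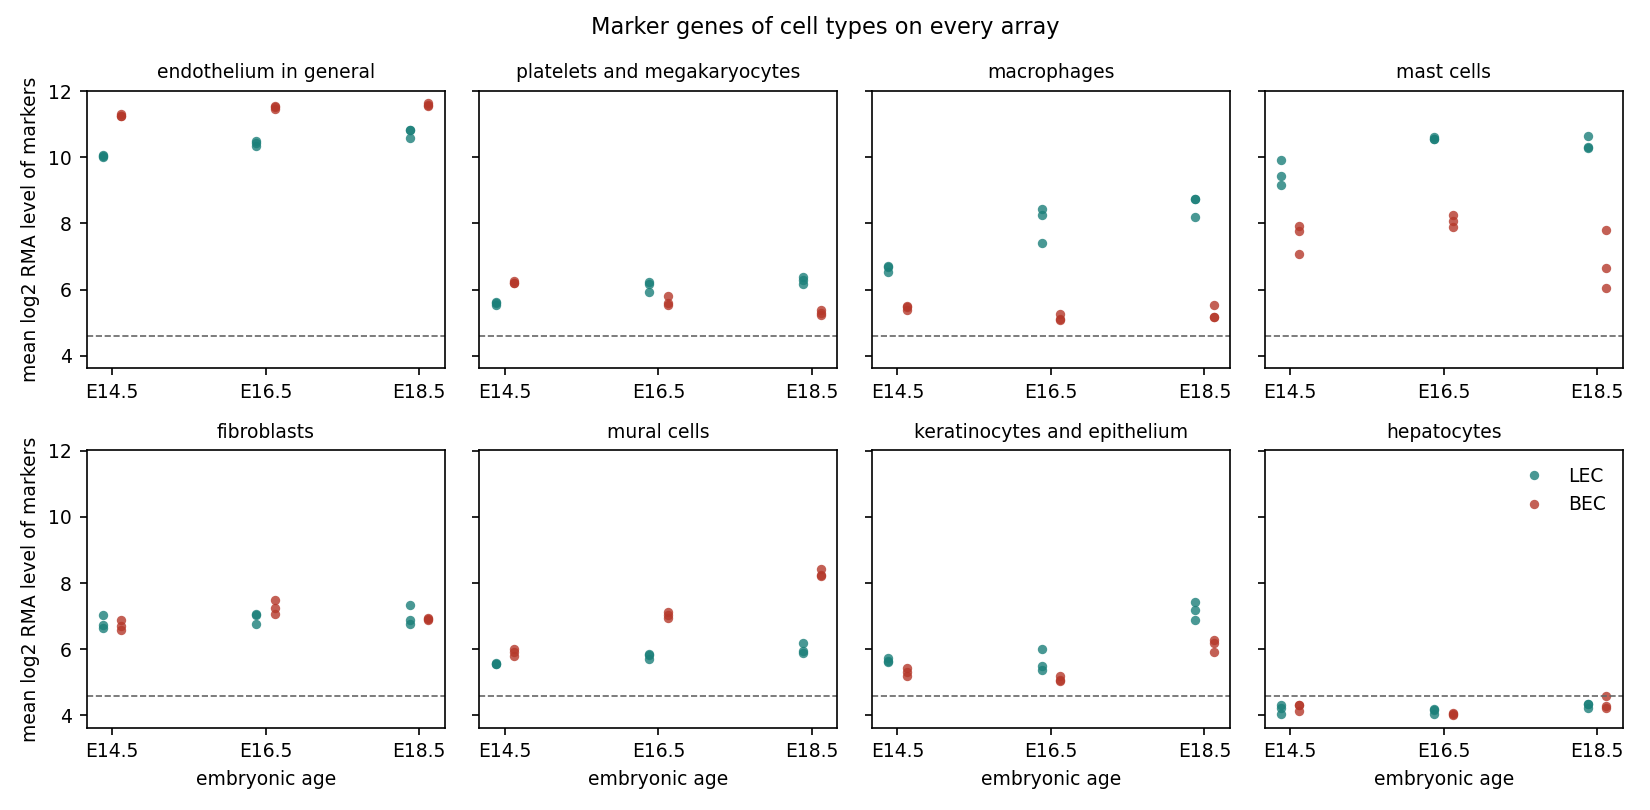
Mean log2 RMA level of marker genes on each of the 18 arrays (points; LEC green, BEC red) against embryonic age, 1 panel per cell type, with the dashed line at the dim bound of 4.58. Macrophage and mast cell markers are higher in LEC, and mural cell markers climb in BEC from 5.80 to 5.99 at E14.5 to 8.22 to 8.42 at E18.5.

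In LEC against BEC over the ages, 8 of the 9 genes passed the test (limma, adjusted p under 0.05 over all genes), 2 higher and 6 lower in LEC, where 37.1% of all genes passed, 18.2% higher and 19.0% lower. F8 and Plau were higher in LEC, and Vwf, Thbd, Procr, Tfpi, Plat and Anxa2 were lower. The median difference of the 9 genes was -0.34, against -0.02 over all genes. At E14.5 the test called 1 higher and 5 lower (all genes 16.5%; 8.60% higher, 7.94% lower), at E16.5 it called 2 higher and 5 lower (all genes 25.2%; 13.0% higher, 12.2% lower), and at E18.5 it called 2 higher and 4 lower (all genes 30.4%; 14.6% higher, 15.9% lower). The medians of the 9 genes at these ages were -0.62, -0.28 and 0.12, against -0.03, 0.00 and -0.04 over all genes. The E18.5 median is the value of F3, which was not called (adjusted p = 0.63) and lay in the dim range on every array. Its size and sign are therefore uncertain and do not show a shift of the 9 genes towards LEC.

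Between E14.5 and E18.5, 6 genes rose and 1 fell in LEC (all genes 40.9%; 19.7% higher, 21.2% lower), and 5 rose and 1 fell in BEC (all genes 30.6%; 13.3% higher, 17.3% lower). The medians were 0.88 in LEC and 0.40 in BEC, against 0.04 over all genes in both and against 0.68 and 0.29 for the 6 general endothelial markers. The part of those markers in the rises was not tested. Vwf, F8, Thbd, Procr and Anxa2 rose in both cell types, Tfpi rose in LEC, and Plau fell in both. In LEC, 5 genes rose and 2 fell from E14.5 to E16.5 (all genes 13.8%; 8.07% higher, 5.72% lower), and 4 rose from E16.5 to E18.5 (all genes 34.4%; 15.9% higher, 18.5% lower). In BEC, 4 rose and 1 fell in the earlier step (all genes 9.76%; 5.10% higher, 4.66% lower), and 2 rose and 1 fell in the later (all genes 32.3%; 15.8% higher, 16.4% lower). When every array was moved to the same median, the share of called genes that were higher moved from 46.3% to 26.6% in LEC and from 49.1% to 30.5% in BEC in the later step, from 48.2% to 37.6% over the whole change in LEC, and from 52.2% to 66.4% in the earlier step in BEC. That shift took the median of all genes from 0.05 to -0.07 in LEC in the later step.

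The change from E14.5 to E18.5 differed between LEC and BEC for 2 of the 9 genes, F8 and Tfpi, both with the larger rise in LEC (all genes 8.85%; 5.02% higher, 3.83% lower). In the later step it differed for Tfpi and Plat (all genes 3.65%; 1.53% higher, 2.12% lower). In the earlier step limma called 0 of the 9 (all genes 2.63%; 1.89% higher, 0.742% lower). At an unadjusted p under 0.05 there were 6. No share over all genes was taken for that count, so it cannot be read as a result about the 9 genes. With the E18.5 arrays left out of the fit 3 were called (Procr, Tfpi and Plat), and the calls over all genes rose too, as given at the end. All these comparisons share arrays, so they are not independent of each other.

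**Figure D2:**
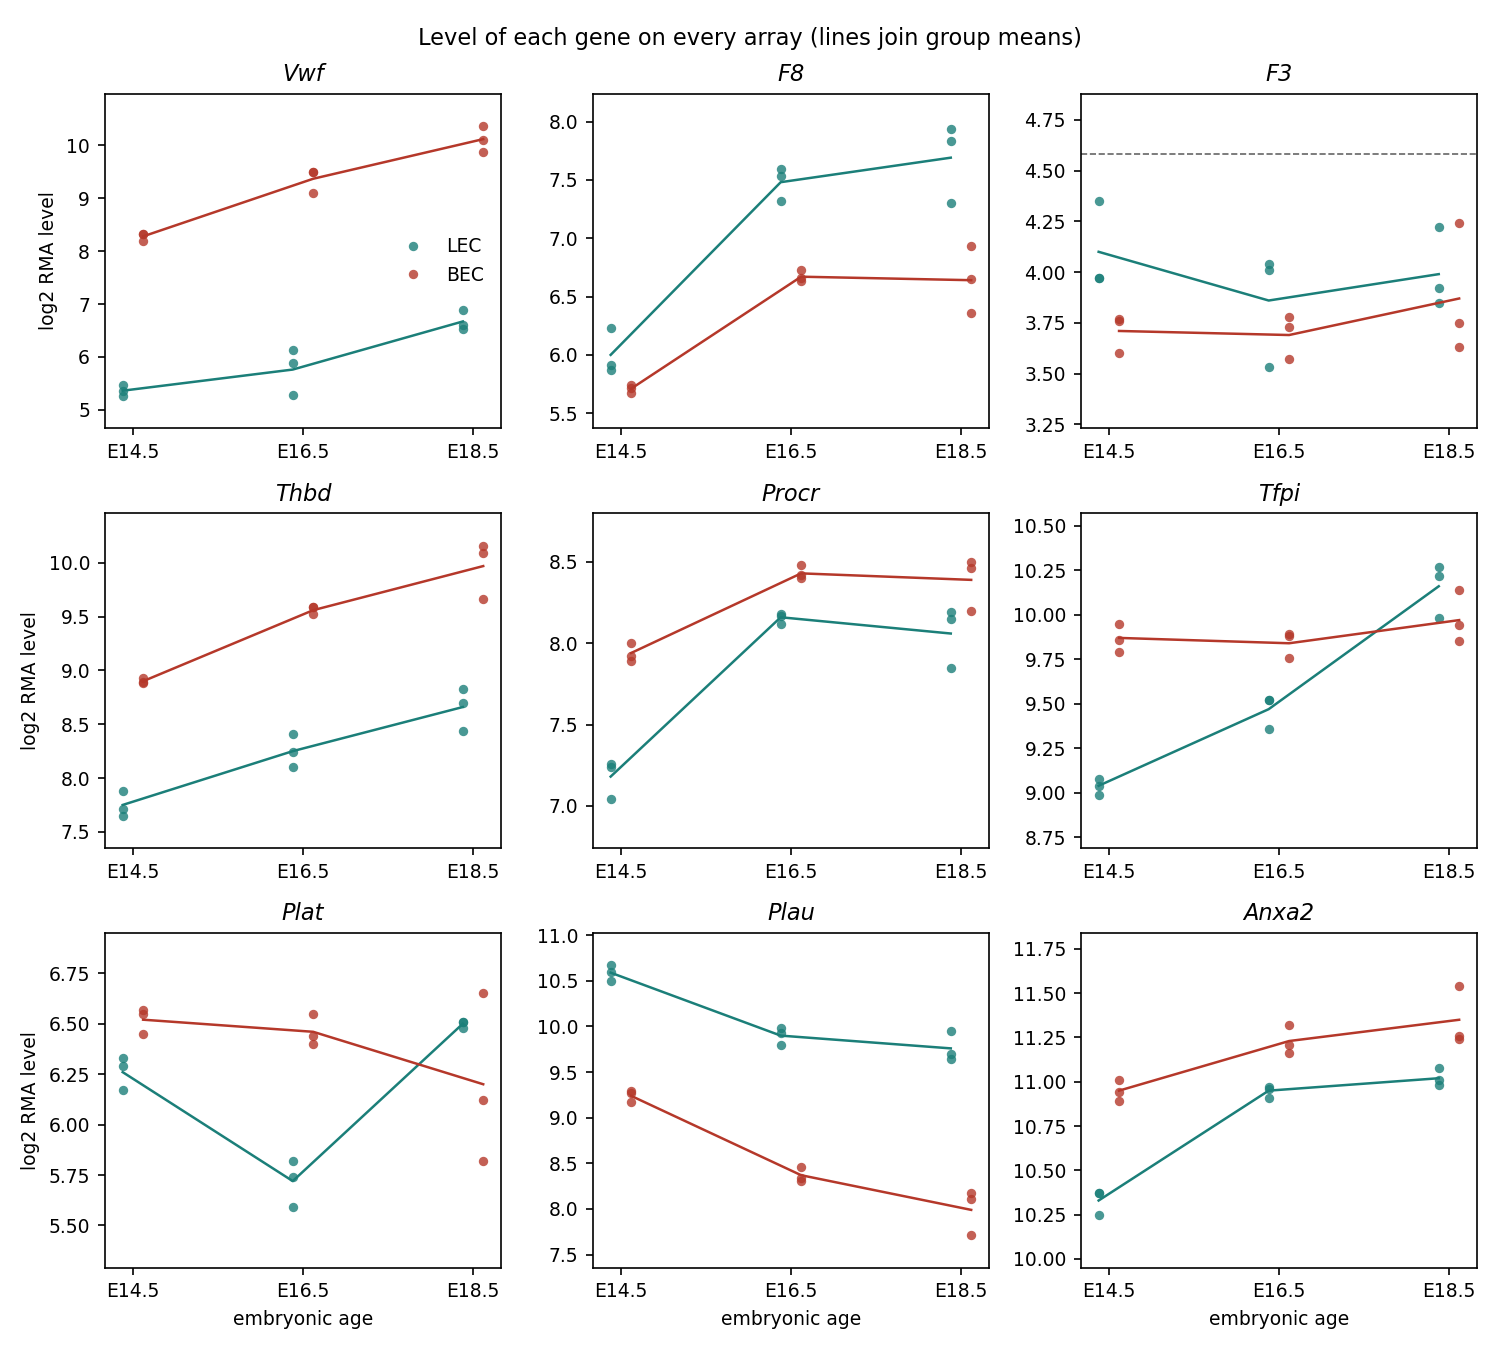
Log2 RMA level of each of the 9 genes on every array (points) at the 3 embryonic ages, with lines joining the group means of LEC (green) and BEC (red); the y axis differs between panels, and the dashed line in the F3 panel is the dim bound of 4.58. Vwf and Thbd lie lower in LEC and Plau higher in LEC at every age, and Tfpi in LEC climbs from a mean of 9.04 to 10.16 while BEC stays between 9.84 and 9.97.

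**Figure D3:**
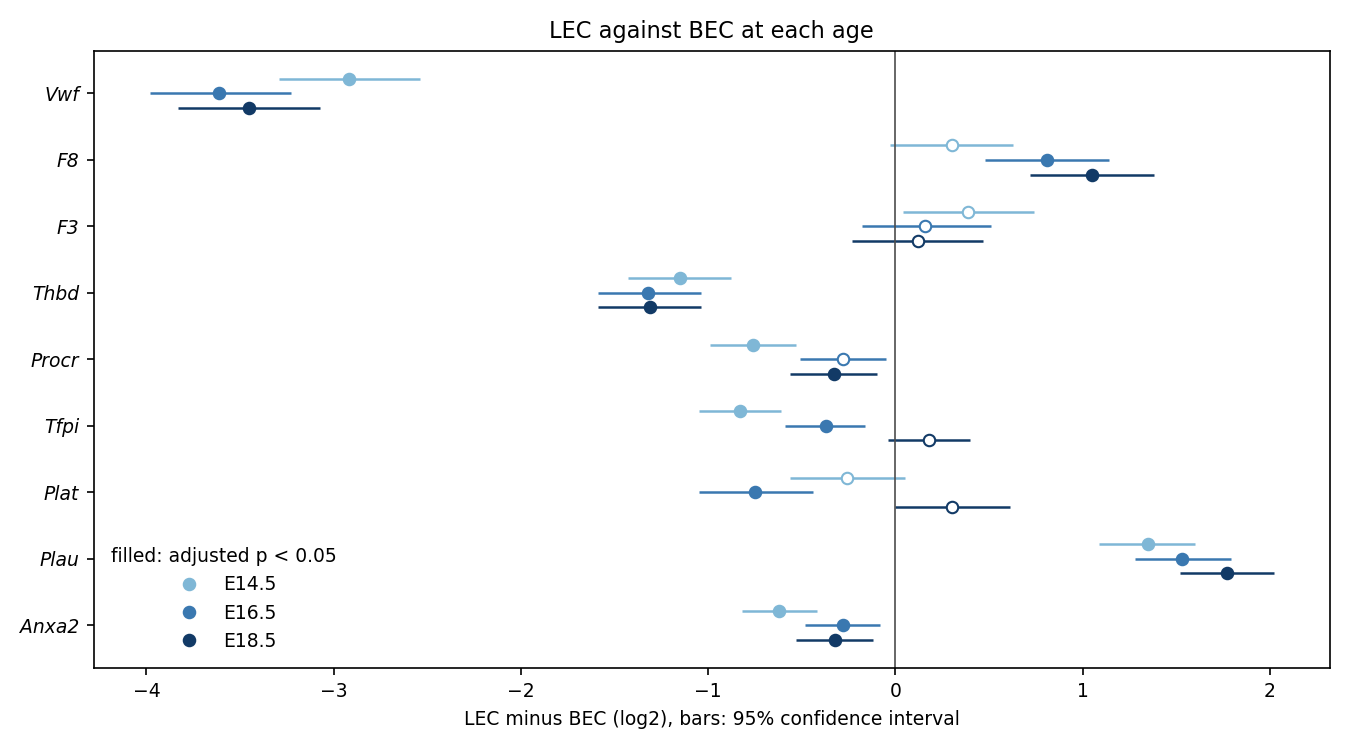
LEC minus BEC (log2, x axis) for each gene at each age, with 95% confidence intervals from limma and filled points where adjusted p is under 0.05. Vwf stands lowest, from -2.92 to -3.61, Plau highest, from 1.35 to 1.77, and the Tfpi difference runs from -0.83 at E14.5 to 0.18 at E18.5.

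Vwf, which encodes the platelet-capturing carrier of factor VIII, was much lower in LEC at every age and rose with age in both cell types. In LEC its levels were 5.35, 5.47 and 5.26 at E14.5, 5.27, 5.88 and 6.13 at E16.5, then 6.53, 6.88 and 6.60 at E18.5. In BEC they were 8.19, 8.32 and 8.33, then 9.49, 9.11 and 9.50, then 9.88, 10.37 and 10.10. Every BEC array was above every LEC array, and all LEC arrays were above the dim range. The level was 7.56-fold lower in LEC at E14.5 (log2 difference -2.92 ± 0.18, SE; adjusted p = 4.9e-10), 12.2-fold lower at E16.5 (-3.61 ± 0.18, adjusted p = 1.4e-11) and 10.9-fold lower at E18.5 (-3.45 ± 0.18, adjusted p = 2.2e-11). From E14.5 to E18.5 Vwf rose by 1.31 ± 0.18 in LEC (adjusted p = 9.3e-06) against 1.84 ± 0.18 in BEC (adjusted p = 3.1e-07). The difference between these rises was -0.53 ± 0.25 (adjusted p = 0.24). In BEC both steps passed, with 1.09 (adjusted p = 0.00081) and then 0.75 (adjusted p = 0.0043). In LEC the step to E18.5 passed at 0.91 (adjusted p = 0.00077) and the step before it, at 0.40, did not (adjusted p = 0.16), except without replicate 1 of LEC at E16.5, the lowest array of its group, where it was 0.64 (adjusted p = 0.016). The groups ranked by mean from BEC at E18.5 (10.12) through BEC at E16.5 and E14.5 to LEC at E18.5, E16.5 and E14.5 (5.36), and only the last pair overlapped. Platelets also hold VWF. Their 5 measured markers averaged 6.19 to 6.26 in BEC at E14.5 and 5.23 to 5.39 at E18.5. In LEC they averaged 5.52 to 5.61 at E14.5 and 6.16 to 6.39 at E18.5. The part of platelets in the Vwf levels was not tested.

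F8, which encodes coagulation factor VIII, differed from Vwf in being higher in LEC. In LEC the levels were 5.87, 6.23 and 5.91 at E14.5, 7.59, 7.32 and 7.53 at E16.5, then 7.30, 7.94 and 7.83 at E18.5. In BEC they were 5.67, 5.74 and 5.72, then 6.66, 6.63 and 6.73, then 6.36, 6.65 and 6.93. LEC and BEC arrays did not overlap at any age, by the narrowest margin at E14.5. Over the ages F8 was higher in LEC by 0.72 ± 0.09 (adjusted p = 2.5e-06). By age the difference was 0.30 ± 0.16 at E14.5, which did not pass (adjusted p = 0.27), 0.81 at E16.5 (1.75-fold, adjusted p = 0.00058) and 1.05 at E18.5 (2.07-fold, adjusted p = 3.3e-05). F8 rose 3.22-fold in LEC from E14.5 to E18.5 (1.69 ± 0.16, adjusted p = 1e-07) and 1.92-fold in BEC (0.94 ± 0.16, adjusted p = 0.00014). Most of both rises lay before E16.5, with 1.48 in LEC (adjusted p = 5.7e-06) against 0.97 in BEC (adjusted p = 0.00079), and the later step, 0.21 in LEC and -0.03 in BEC, did not pass (adjusted p = 0.32 and 0.91). Without replicate 1 of LEC at E18.5 that LEC step was 0.41 (adjusted p = 0.041). The rise was larger in LEC by 0.75 (95% interval 0.28 to 1.22, adjusted p = 0.042), a call close to the threshold. It was lost when any of 13 of the 18 arrays was left out: replicates 1 and 3 (E14.5), 3 (E16.5), 2 and 3 (E18.5) of LEC, and replicates 1, 2 and 3 (E14.5, E16.5), 1 and 2 (E18.5) of BEC. Its value then lay between 0.61 and 0.77. It was also lost with a common median (0.71, adjusted p = 0.055), array weights (0.71, adjusted p = 0.054), no moderation (0.75, adjusted p = 0.08) or only the compared groups (0.75, adjusted p = 0.088). Macrophage markers in LEC averaged 6.54 to 6.70 at E14.5 and 8.19 to 8.75 at E18.5. In BEC, where F8 also rose, they averaged 5.39 to 5.49 at E14.5 and 5.16 to 5.53 at E18.5, with 1 of 8 higher, 2 lower and a median change of 0.05. Mast cell markers averaged 9.50, 10.57 and 10.41 in LEC at the 3 ages and 7.59, 8.07 and 6.83 in BEC. The part of either cell type in the F8 levels was not tested.

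F3, the gene of tissue factor, lay in the dim range on all 18 arrays. Its levels were 3.97, 4.35 and 3.97 in LEC at E14.5, 4.01, 4.04 and 3.53 at E16.5, then 3.92, 3.85 and 4.22 at E18.5. In BEC they were 3.60, 3.76 and 3.77, then 3.73, 3.57 and 3.78, then 4.24, 3.75 and 3.63. The 2 cell types overlapped at E16.5 and E18.5 and not at E14.5, and F3 could not be told from genes that endothelium is not expected to express. LEC minus BEC over the ages was 0.22 (95% interval 0.02 to 0.43, adjusted p = 0.076). It passed without replicate 3 of LEC at E16.5 (0.28, adjusted p = 0.022), without replicate 1 of BEC at E18.5 (0.29, adjusted p = 0.014), without all E18.5 arrays (0.28, adjusted p = 0.048) and after quantile normalization (0.24, adjusted p = 0.038). No change of F3 with age was called in either cell type.

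The surface anticoagulant receptors Thbd and Procr were both lower in LEC. Thbd, which encodes thrombomodulin, measured 7.71, 7.65 and 7.88 in LEC at E14.5, 8.24, 8.10 and 8.41 at E16.5, then 8.44, 8.70 and 8.83 at E18.5. In BEC it measured 8.89, 8.93 and 8.88, then 9.52, 9.59 and 9.59, then 9.66, 10.09 and 10.16. All 9 BEC arrays were above all 9 LEC arrays, and within each cell type every age stood above the age before it. At E14.5 the LEC level of Thbd was 2.22-fold lower (-1.15 ± 0.13, adjusted p = 1.7e-06) and at E18.5 it was 2.49-fold lower (-1.31 ± 0.13, adjusted p = 1.7e-07), with -1.32 at E16.5. It rose from E14.5 to E18.5 by 0.91 ± 0.13 in LEC (adjusted p = 1.6e-05) against 1.07 ± 0.13 in BEC (adjusted p = 4.1e-06). The difference of these rises was -0.16, with a 95% interval from -0.55 to 0.23 (adjusted p = 0.69), so the data bound it without showing that the rises are equal. The single steps passed less firmly, at 0.50 (adjusted p = 0.014) and 0.41 (adjusted p = 0.021) in LEC and 0.66 (adjusted p = 0.0034) and 0.41 (adjusted p = 0.024) in BEC. The later step was lost in both cell types when every array was moved to the same median, at 0.29 in LEC (adjusted p = 0.099) against 0.31 in BEC (adjusted p = 0.079), and when only the compared groups were fitted (0.41 in both, adjusted p = 0.069 and 0.068). In LEC the call of the earlier step was lost without replicate 1 or 2 of E14.5 or 3 of E16.5 (0.42 to 0.48, adjusted p at most 0.071), and that of the later step without replicate 1 or 2 of E16.5 or 2 or 3 of E18.5 (0.32 to 0.40, adjusted p at most 0.094). In BEC the later step was lost without the same replicates, 1 or 2 of E16.5 or 2 or 3 of E18.5 (0.31 to 0.42, adjusted p at most 0.098).

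Procr, the endothelial protein C receptor gene, measured 7.04, 7.26 and 7.24 in LEC at E14.5, 8.12, 8.18 and 8.17 at E16.5, then 7.85, 8.19 and 8.15 at E18.5. In BEC it measured 7.89, 8.0 and 7.92, then 8.40, 8.48 and 8.42, then 8.20, 8.50 and 8.46. BEC was above LEC on all arrays of each age, with the widest gap at E14.5. The difference over the ages was -0.46 ± 0.06 (adjusted p = 7.1e-06), and by age it was -0.76 at E14.5 (1.69-fold lower, adjusted p = 3e-05), -0.28 at E16.5 (adjusted p = 0.07) and -0.33 at E18.5 (adjusted p = 0.028). The E18.5 call was lost without replicate 1 of LEC (-0.22, adjusted p = 0.13) or replicate 2 (-0.27, adjusted p = 0.11) or 3 (-0.29, adjusted p = 0.086) of BEC at that age, with array weights (-0.33, adjusted p = 0.085) and with only the compared groups fitted (-0.33, adjusted p = 0.2). At E16.5 the difference passed under 7 of 29 alternatives at -0.28 to -0.27: without replicate 1 of LEC at E18.5 (adjusted p = 0.039), without all E18.5 arrays (0.019), with array weights (0.025), with only the compared groups (0.041), with an intensity trend in the variance (0.044), without dim genes (0.046) and with the fixed replicate block (0.046). Procr rose by 0.88 in LEC (adjusted p = 2.9e-06) against 0.45 in BEC (adjusted p = 0.0035) from E14.5 to E18.5. In both, the step to E16.5 passed, at 0.98 (adjusted p = 8.8e-06) and 0.50 (adjusted p = 0.0075), while the later step was -0.09 and -0.05 (adjusted p = 0.53 and 0.76). The difference of the whole changes was 0.43 ± 0.15 (adjusted p = 0.098), and 0.54 without replicate 1 of LEC at E18.5 (adjusted p = 0.024).

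Tfpi, which encodes the inhibitor of the tissue factor step, was lower in LEC at E14.5 and E16.5 and rose there, while no change with age was called in BEC. In LEC its levels were 9.08, 8.99 and 9.04 at E14.5, 9.52, 9.52 and 9.36 at E16.5, then 10.22, 10.27 and 9.98 at E18.5. In BEC they were 9.95, 9.79 and 9.86, then 9.88, 9.89 and 9.76, then 9.94, 9.85 and 10.14. LEC lay below BEC on all arrays at E14.5 and E16.5 and overlapped it at E18.5. The difference was -0.83 ± 0.10 at E14.5 (1.77-fold lower in LEC, adjusted p = 6.3e-06), -0.37 ± 0.10 at E16.5 (adjusted p = 0.011) and 0.18 at E18.5 (95% interval -0.04 to 0.40, adjusted p = 0.21). Without replicate 3 of LEC at E16.5 the difference of that age was -0.32 (adjusted p = 0.056). In LEC Tfpi rose 2.17-fold over the whole period (1.12 ± 0.10, adjusted p = 9.9e-08), by 0.43 (adjusted p = 0.0091) and then by 0.69 (adjusted p = 6.8e-05). In BEC the whole change was 0.11 (95% interval -0.11 to 0.33, adjusted p = 0.49). The changes differed by 1.01 ± 0.15 (95% interval 0.70 to 1.32, adjusted p = 0.00016), a call that held under all 28 alternatives. For the later step alone the difference was 0.56 ± 0.15 (adjusted p = 0.042), and that call was lost on leaving out any single array other than replicate 3 of LEC or replicate 3 of BEC at E18.5 (0.49 to 0.60). It was lost too with a common median (adjusted p = 0.058), array weights (0.092), the fixed replicate block (0.095) or only the compared groups (0.13), at 0.52 to 0.56.

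**Figure D4:**
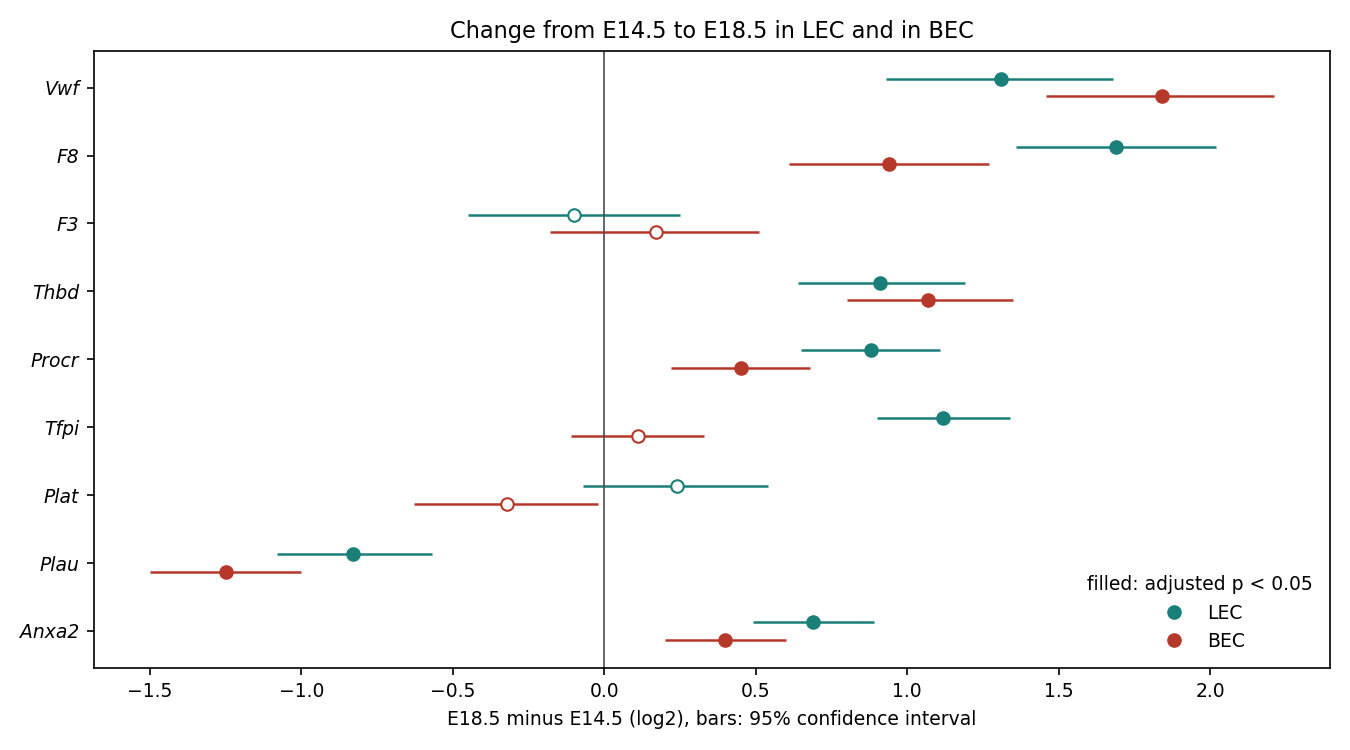
Change from E14.5 to E18.5 (log2, x axis) of each gene in LEC (green) and BEC (red), with 95% confidence intervals from limma and filled points where adjusted p is under 0.05. Tfpi changed by 1.12 in LEC and 0.11 in BEC, F8 by 1.69 and 0.94, and Plau by -0.83 and -1.25.

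Of the plasminogen activators, Plau was higher in LEC and fell with age, and Plat differed by less and in single steps. Plau, which encodes urokinase-type plasminogen activator, measured 10.60, 10.50 and 10.67 in LEC at E14.5, 9.80, 9.98 and 9.93 at E16.5, then 9.95, 9.70 and 9.64 at E18.5. In BEC it measured 9.27, 9.17 and 9.29, then 8.34, 8.46 and 8.31, then 8.17, 8.11 and 7.71. Every LEC array was above every BEC array. Plau was higher in LEC 2.54-fold at E14.5 (1.35 ± 0.12, adjusted p = 7.7e-08), 2.90-fold at E16.5 (1.53 ± 0.12, adjusted p = 6.6e-09) and 3.41-fold at E18.5 (1.77 ± 0.12, adjusted p = 8.9e-10). From E14.5 to E18.5 its change was -0.83 in LEC (adjusted p = 1.9e-05) against -1.25 in BEC (adjusted p = 2.7e-07), and these differed by 0.42 ± 0.17 (adjusted p = 0.15). Both cell types fell to E16.5, with changes of -0.68 in LEC (adjusted p = 0.00072) against -0.87 in BEC (adjusted p = 0.00017). The later step was -0.14 in LEC (adjusted p = 0.38) against -0.38 in BEC (adjusted p = 0.024). The BEC call was lost without replicate 2 of E16.5 (-0.33, adjusted p = 0.091), without replicate 3 of E18.5 (-0.23, adjusted p = 0.13), after quantile normalization (-0.23, adjusted p = 0.19) and with only the compared groups fitted (-0.38, adjusted p = 0.083). The 5 lymphatic markers fell in BEC over the same ages, as given above. Macrophage and mast cell markers were higher in LEC too. At the 3 ages in LEC the macrophage markers averaged 6.64, 8.04 and 8.56 and the mast cell markers 9.50, 10.57 and 10.41. The part of these cells in the Plau levels was not tested.

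Plat, which encodes tissue-type plasminogen activator, measured 6.33, 6.29 and 6.17 in LEC at E14.5, 5.59, 5.82 and 5.74 at E16.5, then 6.51, 6.51 and 6.48 at E18.5. In BEC it measured 6.45, 6.55 and 6.57, then 6.40, 6.44 and 6.55, then 5.82, 6.12 and 6.65. LEC was below BEC on all arrays at E14.5 and E16.5, and at E18.5 the BEC arrays spread to both sides of LEC. The difference was -0.26 at E14.5 (adjusted p = 0.31), -0.75 ± 0.15 at E16.5 (1.68-fold lower in LEC, adjusted p = 0.00055) and 0.30 at E18.5 (adjusted p = 0.13). Over the ages it was -0.23 ± 0.08 (adjusted p = 0.035), a call lost without LEC replicate 3 of E14.5 or 1 of E16.5, or BEC replicates 2 or 3 of E14.5 or 3 of E16.5 (-0.23 to -0.21), and without moderation (adjusted p = 0.056). In LEC Plat fell to E16.5 (-0.55, adjusted p = 0.016) and rose by 0.78 to E18.5 (adjusted p = 0.00045). The fall was lost without LEC replicate 1 (-0.52) or 2 (-0.54) of E14.5 or 1 of E16.5 (-0.49). In the later step LEC and BEC differed by 1.05 ± 0.21 (adjusted p = 0.0072). BEC replicate 3 at E18.5, the highest of its group, decided several values: without it Plat was higher in LEC at E18.5 by 0.53 (adjusted p = 0.0015), the BEC change was -0.55 over the whole period (adjusted p = 0.0012, against -0.32 and 0.11 with it) and -0.49 in the later step (adjusted p = 0.0039), and the whole changes differed by 0.79 (adjusted p = 0.0026, against 0.56 and 0.11).

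Anxa2, the cell-surface assembly site of the plasminogen system, measured 10.37, 10.25 and 10.37 in LEC at E14.5, 10.96, 10.91 and 10.97 at E16.5, then 11.01, 10.98 and 11.08 at E18.5. In BEC it measured 10.89, 11.01 and 10.94, then 11.32, 11.16 and 11.21, then 11.24, 11.26 and 11.54. BEC was above LEC on all arrays of each age. The difference was -0.62 ± 0.10 at E14.5 (adjusted p = 7.2e-05), -0.28 at E16.5 (adjusted p = 0.037) and -0.32 at E18.5 (adjusted p = 0.014). The E16.5 call was lost without any of the LEC replicates 1, 2 and 3 or the BEC replicates 1 and 3 of that age (-0.29 to -0.24), and with the fixed replicate block, which pairs arrays by number (-0.28, adjusted p = 0.062). The E18.5 call was lost without BEC replicate 3 of that age (-0.23, adjusted p = 0.084), with array weights (-0.34, adjusted p = 0.053) and with only the compared groups fitted (-0.32, adjusted p = 0.17). Anxa2 rose by 0.69 in LEC (adjusted p = 1e-05) against 0.40 in BEC (adjusted p = 0.0035) from E14.5 to E18.5, and the rises differed by 0.30 ± 0.14 (adjusted p = 0.22). In LEC the step to E16.5 passed at 0.62 (adjusted p = 0.00024). In BEC it was 0.28 (adjusted p = 0.074), and it passed under 7 of 28 alternatives at 0.28 to 0.32: with array weights (adjusted p = 0.0099), an intensity trend (0.018), a common median (0.043) or no moderation (0.031), without dim genes (0.047), without all E18.5 arrays (0.03) and without replicate 3 of BEC at E18.5 (0.048).

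Group means of Vwf, Thbd and Plau spanned over 2 log2 units, and for these the genes nearest in centred level over the 18 arrays were found. For Vwf they were Tcim, Pcdh19 and Abcb1a, with root mean square differences of 0.29, 0.34 and 0.34. For Thbd they were Ptprb and Podxl, both at 0.17, and Mrtfb at 0.19. For Plau they were Myo7a at 0.18, Tbx1 at 0.20 and Pld5 at 0.26. These are the nearest genes after passing over predicted, RIKEN, olfactory and vomeronasal receptor and microRNA genes, and they describe likeness of level only.

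Other genes of clotting and clot removal were taken from 8 lists with 74 genes, of which 66 were measured. Over the ages 34 passed, 23 higher and 11 lower in LEC (all genes 37.1%), with a median difference of -0.03 against -0.02. The age change was called for 30 in LEC, 26 of them rises (all genes 40.9%), and for 25 in BEC, 18 of them rises (all genes 30.6%), and it differed between the cell types for 13, 10 with the larger value in LEC (all genes 8.85%).

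The plasma coagulation factors, made mainly by liver, held 12 measured genes, and 6 lay in the dim range on every array. Of the 12, 1 was called over the ages, lower in LEC (all genes 37.1%). Their age change was called by limma for 0 of 12 in LEC (all genes 40.9%) and 0 of 12 in BEC (all genes 30.6%). At an unadjusted limma p under 0.05 there were 0 in both, a count for which no share over all genes was taken.

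In a list of 11 anticoagulant proteins and their relatives, 4 were higher and 2 lower in LEC (all genes 18.2% higher, 19.0% lower), with a median of -0.03. Gas6, listed as a relative of protein S, was among the 4 higher genes at 0.46. That call was lost without the E18.5 arrays (0.28, adjusted p = 0.11). Hs3st1, which encodes an enzyme that makes the antithrombin-binding form of heparan sulfate, was higher in LEC by 1.66 ± 0.08 (adjusted p = 3.7e-12). Pros1, the gene of protein S, the cofactor of activated protein C, was higher by 0.65 ± 0.06 and rose in both cell types, by 1.46 in LEC and 1.08 in BEC. Tfpi2, a relative of Tfpi, was higher by 0.37 and rose by 1.63 in LEC and 1.24 in BEC. Gas6, a vitamin K dependent ligand related to protein S, rose by 1.76 in LEC and by 0.63 in BEC, and the rises differed by 1.13 ± 0.25 (adjusted p = 0.0056); the BEC rise was 0.50 (adjusted p = 0.059) without replicate 1 of BEC at E14.5.

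Of 8 measured plasminogen system genes 3 were higher in LEC and 0 lower (all genes 18.2% higher, 19.0% lower). The 3 were Plgrkt, a plasminogen receptor (1.37 ± 0.10), Plaur, the receptor of the Plau product (1.03 ± 0.07, adjusted p = 2.8e-10), and S100a10, the partner of annexin A2 (0.36 ± 0.05). S100a10 was higher in LEC, where Anxa2 differed by -0.41 ± 0.06, and it rose by 0.87 in LEC and by 0.70 in BEC; it was named after its values were seen. Plaur measured 7.81 to 7.91, 8.66 to 8.86 and 8.29 to 8.51 in LEC at the 3 ages and 7.05 to 7.64 over all BEC arrays, so no LEC array overlapped BEC. It rose in LEC by 0.51 (adjusted p = 0.0022), while Plau fell there. Plgrkt rose in LEC by 0.56 (adjusted p = 0.015), a call lost without replicate 1 (0.50) or 3 (0.42) of LEC at E14.5 or replicate 1 at E18.5 (0.36).

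A list on the storage, secretion and clearance of VWF and factor VIII also held other stored proteins, among them Mmrn1 and Angpt2. Of its 15 measured genes, 11 were higher and 1 lower in LEC (all genes 18.2% higher, 19.0% lower), with a median of 0.39. Vwf itself was lower. Mmrn1, a multimeric protein of platelet and endothelial granules that binds factor V, stood at 11.42 to 11.45 in LEC at E14.5 and 12.28 to 12.59 at E18.5, and in BEC at 9.05 to 9.54 and 6.19 to 7.02. It rose by 0.98 in LEC (adjusted p = 0.00014) and changed by -2.70 in BEC (adjusted p = 2.3e-09), the opposite of the Vwf rise there. The lymphatic markers fell in BEC with it, from a mean of 8.10 to 6.49, and their part in the BEC falls of Mmrn1, Stab1 (-1.02), Stab2 (-0.50) and Plau was not tested. Cd63, a tetraspanin of Weibel-Palade bodies and of lysosomes and mast cell granules, was higher in LEC by 2.09 ± 0.09, and Angpt2, a stored angiopoietin, by 1.49 ± 0.07. Rab27a, a GTPase of these organelles, was higher by 1.05 ± 0.06. Stab1 and Stab2, scavenger receptors listed here under clearance, were higher by 1.87 ± 0.06 and 1.86 ± 0.09. Macrophages and mast cells also express several of these genes, and their markers were higher in LEC as given above.

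The 3 vitamin K cycle genes held 2 higher in LEC (all genes 18.2%), with a median of 0.22. Of 3 measured thrombin and protease receptors, F2rl3, named after its values were seen, was 2-fold lower in LEC (95% interval of the log2 difference -1.28 to -0.72, adjusted p = 4.8e-06), and F2r, the main thrombin receptor of endothelium, was not called over the ages (-0.08, adjusted p = 0.3). F2r rose by 1.14 in LEC (adjusted p = 4.4e-08) and changed by -0.13 in BEC (adjusted p = 0.38), a difference of 1.26 ± 0.14 (adjusted p = 9.8e-06). Its LEC arrays ran from 8.27 to 8.45 at E14.5, below the BEC arrays at 8.90 to 9.13, to 9.43 to 9.56 at E18.5, above the BEC arrays at 8.84 to 8.98. Without the E18.5 arrays F2r was lower in LEC (-0.41, adjusted p = 0.00027).

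Among 6 measured inhibitors of platelets, 4 were lower and 1 higher in LEC (all genes 19.0% lower, 18.2% higher), with a median of -0.76. Entpd1, which encodes the CD39 enzyme that breaks down ADP, was at 4.91 to 5.62 in LEC and 9.48 to 9.67 in BEC at E14.5 and at 7.85 to 8.53 and 11.39 to 11.67 at E18.5, with a difference of -3.70 ± 0.10 over the ages (adjusted p = 1.1e-15). It rose in both, by 2.79 in LEC and 1.92 in BEC. Nos3, the endothelial nitric oxide synthase gene, was lower in LEC (-2.03 ± 0.10) and rose by 2.10 in LEC (adjusted p = 2e-08) against 0.10 in BEC (adjusted p = 0.7). Pecam1, also a general endothelial marker, was lower in LEC (-1.07 ± 0.06) and rose by 0.92 in LEC and 0.57 in BEC. Ptgs2, a prostanoid synthesis gene, was the member of this list higher in LEC, by 2.26 ± 0.09.

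Of 8 transcription factors reported to act on the 9 genes, 2 were higher and 2 lower in LEC (all genes 18.2% higher, 19.0% lower). With age 6 rose and 1 fell in each cell type (all genes 19.7% higher and 21.2% lower in LEC, 13.3% and 17.3% in BEC). Gata2, the factor of the study's title, was higher in LEC by 1.99 ± 0.12 and changed by -1.03 in LEC and -1.22 in BEC. Mast cell markers were higher in LEC too, as given above, and the part of mast cells in the Gata2 levels was not tested. The flow-responsive factor Klf4 was higher in LEC by 0.73 ± 0.10 and rose by 1.81 in LEC and 1.49 in BEC, and the immediate early gene Egr1 rose by 1.40 and 1.53. Klf2, which is known to induce Thbd and was named after its values were seen, was not called between the cell types (-0.17, adjusted p = 0.079) and rose by 0.95 in LEC and 0.85 in BEC. It passed between the cell types, at -0.21, -0.21 and -0.20, without LEC replicate 1 of E18.5, BEC replicate 1 of E14.5 or BEC replicate 3 of E18.5.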

How the data were processed

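The deposited values are log2 expression values of 35556 transcript clusters on 18 arrays. Per the submitters' processing notes, the authors used RMA and oligo 1.54.1 to make them. Joint normalization of all arrays, a genome build and filters are not stated there or in the labels. RMA corrects background, quantile-normalizes and summarises probes, which can compress differences. Rows were named through the platform annotation (21789 rows with 1 symbol, 1621 with several and 12146 unlisted), and 999 genes with more than 1 row kept the brightest, leaving 19938 genes. Group means were fitted with limma 3.58.1 in R 4.3.3 (13 contrasts, eBayes without trend, no replicate block), and p-values were adjusted by Benjamini-Hochberg over all genes. On simulated data for the comparison over the ages, run on 19938 genes, 100 of 100 genes changed by 1 and 85 of 100 changed by 0.5 (log2) were recovered. Arrays give no read depth, and 3 a group limit the precision.

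The 9 genes, the 8 lists and the markers were chosen with earlier results of these data known. From each list the text names up to 4 genes with the largest called differences of at least 1 over the ages and up to 3 with the largest called age changes of at least 1, and for Vwf, Thbd and Plau the 3 nearest genes, passing over predicted, RIKEN, receptor and microRNA genes. S100a10, Klf2 and F2rl3 were added by name. Alternatives changed the scaling, the variance model, a filter on dim genes, the row of a gene, array weights, the samples in the fit and the pairing, and left out each array in turn.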

Additional observations from a re-analysis of the deposited data

Results flagged for a closer look

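The listed results are those whose change with age differed between LEC and BEC by the test of the difference itself (limma, adjusted p under 0.05), given as LEC minus BEC on the log2 scale. Groups of 3 arrays were too small to test single arrays as outliers. No explanation was tested for any of these differences.

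Among the 9 genes, Tfpi differed by 1.01 from E14.5 to E18.5 and by 0.56 from E16.5 to E18.5, Plat by 1.05 from E16.5 to E18.5, and F8 by 0.75 from E14.5 to E18.5. The Tfpi difference over the whole period held under all 28 alternatives, whereas the F8 difference and that of the later Tfpi step lay near the threshold and were lost under 13 and 16 of the 18 fits without 1 array.

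Among related genes, the change from E14.5 to E18.5 was larger in LEC for Mmrn1 by 3.68, for Nos3 by 2.00, for F2r by 1.26, for Gas6 by 1.13, for Stab2 by 1.02, for Stab1 by 0.99 and for Cd63 by 0.98. For Stab2 and Mmrn1 the BEC level fell while the LEC level rose, and for Stab1 the BEC level fell (-1.02) against -0.03 in LEC. Stab2 rose by 0.51 in LEC (adjusted p = 0.0092) and changed by -0.50 in BEC (adjusted p = 0.014). The Stab2 rise in LEC was lost without LEC replicate 1 of E14.5 (0.40) or 2 of E18.5 (0.41), and the fall in BEC without BEC replicate 2 of E14.5 (-0.47) or 2 of E18.5 (-0.39). Entpd1 differed by 0.87 and Ptgs2 by 0.83, and these calls were lost under 14 and 5 of the 28 alternatives. The change was smaller in LEC for Angpt2, by -1.03, and for Rab27a, by -0.90, since both rose in BEC, by 1.07 and 1.05, against 0.04 and 0.16 in LEC.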

How the results depend on the processing

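Each of 117 member results was recomputed under up to 29 alternatives. The call was the same in all of them for 90 and was lost or gained in at least 1 for 27. Of 3254 values, 80 lost and 37 gained a call, and 0 called values changed sign; 42 changed sign where neither fit called them, which was not counted as a reversal. For the related genes named, 80 of 92 results kept their call. The age changes of Vwf, F8, Thbd, Procr, Tfpi, Plau and Anxa2 over the whole period in LEC were called under every alternative run. Limits are 3 arrays a group, F3 in the dim range, and groups that differ in markers of other cells.

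The count of members called moved as follows. In the later BEC step 3 became 1 with only the compared groups fitted, and 1 to 3 without 1 array. For the difference of the whole age changes 2 became 1 with a common median, without moderation, with array weights or with only the compared groups, and 1 to 3 without 1 array. For the difference of the earlier steps 0 became 1 with an intensity trend and 3 with array weights, with only the compared groups or without the E18.5 arrays. For the difference of the later steps 2 became 1 with a common median, array weights, only the compared groups or the fixed replicate block, and 1 to 2 without 1 array. Over all genes, the calls at E18.5 moved from 6071 to 3707 with only the compared groups. The earlier LEC step moved from 2749 to 4544 with array weights, and to 1758 to 3090 without 1 array. The earlier BEC step moved from 1945 to 4022 with array weights, 3318 without the E18.5 arrays, and 850 to 2238 without 1 array. The difference of the earlier steps moved from 524 to 1215 with array weights, 839 with only the compared groups or without the E18.5 arrays, and 310 to 589 without 1 array. The difference of the later steps moved from 728 to 395 with array weights, 351 with only the compared groups, and 431 to 995 without 1 array. Fits on the compared groups or without the E18.5 arrays use fewer arrays; otherwise the cause was not tested.

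The design text matches LEC and BEC by litter, but same-numbered arrays of an age did not deviate together: correlations of their deviations were -0.02, 0.13 and 0.07 at E14.5, -0.04, 0.10 and 0.10 at E16.5, then 0.07, -0.11 and -0.02 at E18.5. Of these, 4 of 9 LEC arrays matched their own number best. With the fixed replicate block, Procr at E16.5 gained its call (-0.28, adjusted p = 0.046), Anxa2 at E16.5 lost it (-0.28, adjusted p = 0.062) and the difference of the later Tfpi steps lost it (0.56, adjusted p = 0.095). The random block, with a consensus correlation of 0.02, changed no member's call.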
